A study of Danio rerio with 6 samples.

Results

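The miR-181 family was followed in follicular cells of zebrafish (Danio rerio) ovarian follicles, the somatic cells that surround the oocyte. Its members were chosen by name, as every zebrafish row of the deposited tables named miR-181 with any letter, arm or precursor number, which gave 6 of the 289 listed miRNAs. They are the 5p strands dre-miR-181a-5p, dre-miR-181b-5p and dre-miR-181c-5p and the 3p strands dre-miR-181a-3p, dre-miR-181a-5-3p and dre-miR-181a-3-3p. Stage IIIb follicular cells, from mid to late vitellogenic follicles that can respond to maturation-inducing hormones, were compared with stage IIIa follicular cells, from smaller early vitellogenic follicles that cannot, with 3 pooled samples per stage. All 6 samples came from fish with no genotype or treatment named in the labels, and in both stages the cell layers had been stripped from follicles of several fish and separated only by follicle size. The labels do not say whether the pools of the 2 stages came from the same fish. The family itself was selected on these same normalized counts, with its levels and stage differences known, so its stage values are given as a description. Counts of members past a test's threshold stand beside the share of all miRNAs that passed it, and nothing is read from them.

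A miRNA hairpin is cut into a duplex of a 5p and a 3p strand, and usually one of them, the guide, is kept in the silencing complex while the other, the passenger, is degraded. The guide finds its target mRNAs mainly through its seed, bases 2 to 8 from its 5′ end, so strands with the same seed share many predicted targets. The 5p strands are the usual guides of the miR-181 family. In mice miR-181a tunes T cell receptor signaling, and in mouse granulosa cells, the mammalian counterpart of the inner follicular layer, it has been shown to repress the activin receptor IIA and proliferation. In medaka it acts in the growth of retinal axons.

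The mature sequences, as listed with the deposited values (T stands for U in the RNA), are shown because they split the 6 rows into 2 seed groups and show which rows could share reads. The seed is in capitals.
dre-miR-181a-5p: aACATTCAacgctgtcggtgagt
dre-miR-181b-5p: aACATTCAttgctgtcggtggg
dre-miR-181c-5p: cACATTCAttgctgtcggtggg
dre-miR-181a-3p: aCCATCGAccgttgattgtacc
dre-miR-181a-5-3p: aCCATCGAccgttgactgtgcc
dre-miR-181a-3-3p: aCCATCGAgtgttgagtgtacc
The 3 rows of the 5p strand carry the same seed, and the 3 rows of the 3p strand carry another seed that is again common to all 3. None of the other listed miRNAs had either seed. Among the 5p strands, dre-miR-181b-5p and dre-miR-181c-5p differed at 1 of 22 bases, the first (A1C, counted from 1 at the 5′ end), whereas dre-miR-181a-5p, with 23 bases the longest, differed from dre-miR-181b-5p at 3 (A9T, C10T and A21G). Among the 3p strands, dre-miR-181a-3p differed from dre-miR-181a-5-3p at 2 bases (T16C and A20G), and dre-miR-181a-3-3p differed from dre-miR-181a-3p at 3 (G9C, T10C and G16T). Outside the family no listed miRNA came closer than 8 mismatches to any member.

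The names dre-miR-181a-5-3p and dre-miR-181a-3-3p give the precursor a 3p strand was named for, mir-181a-5 and mir-181a-3, while dre-miR-181a-5p and dre-miR-181a-3p carry no precursor number. The RefSeq gene table of assembly GRCz12tu lists 10 mir181 genes, which form 5 neighboring pairs with no listed gene between the partners. In that table mir181a-5 lies beside mir181b-1, mir181a-3 beside mir181c, mir181a-1 beside mir181b-3, mir181a-2 beside mir181b-2 and mir181a-4 beside mir181d. An older name of mir181a-1 in the table is mir213. A 5p strand listed without a precursor number can thus sum the output of several genes. The 6 members are all the miR-181 strands among the listed zebrafish rows, and none of them is named for mir181d.

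The deposited values are read counts that the authors divided by a library size parameter of each sample, called normalized counts below. They sum to between 1819026 and 3166619 in the stage IIIb samples and between 1779302 and 2196896 in the stage IIIa samples. Most low values were whole multiples of 1 step per sample, so that dividing by the step gave an estimate of the reads behind each value, between 2575578 and 9045233 on all listed miRNAs in the stage IIIb samples and between 1129114 and 4005857 in the stage IIIa samples. miR-202, known for its high level in the gonads, took 16.3% to 23.4% of the normalized counts in stage IIIb and 16.0% to 18.2% in stage IIIa. No sample was left out.

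dre-miR-181a-5p was by far the most abundant member, with 90.8% of the normalized counts of the family on average (87.3% to 93.5% over the 6 samples). Ordered by their mean normalized count over the 6 samples, dre-miR-181a-5p (122324) was followed by dre-miR-181b-5p (6476), dre-miR-181a-3p (3836), dre-miR-181a-5-3p (1208), dre-miR-181c-5p (939.8) and dre-miR-181a-3-3p (42.6). This order held in all 6 samples for every pair of members but one. dre-miR-181a-5-3p lay above dre-miR-181c-5p in the 3 stage IIIb samples but in only 1 of the 3 stage IIIa samples, so that these neighbors cannot be ordered. Levels of different strands are compared here as reads of nearly equal length, and how well each strand enters a library was not tested.

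**Figure D1:**
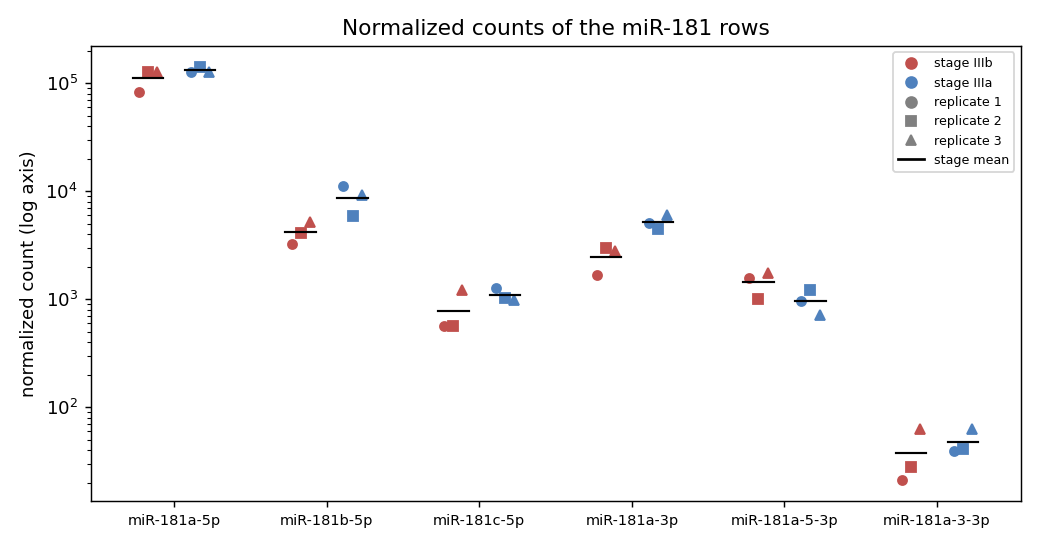
Normalized counts (log axis) of the 6 miR-181 strands in each stage IIIb and stage IIIa sample, where each point is 1 sample and the bar is the stage mean. dre-miR-181a-5p lies between 83158 and 142728 in all samples, far above the other strands, and dre-miR-181a-3-3p never exceeds 63.0.

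dre-miR-181a-5p, the main guide strand, had 83158, 126224 and 126979 normalized counts in stage IIIb replicates 1, 2 and 3, against 127656, 142728 and 127202 in stage IIIa replicates 1, 2 and 3. The stages did not overlap, but the highest stage IIIb sample fell just short of the lowest stage IIIa sample, and stage IIIb replicate 1 was low by itself. The stage mean in IIIb was 112120 ± 25085, against 132529 ± 8836 in IIIa (SD, n = 3), a log2 fold change (stage IIIb over stage IIIa, on log2 of normalized count + 1) of -0.27 (SE 0.30). Without stage IIIb replicate 1 this value was -0.06.

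As a share of all normalized counts, which does not depend on the library size parameter, dre-miR-181a-5p stood further apart between the stages. Lower shares in stage IIIb were common, since the mean share was lower for 60.2% of all listed miRNAs and the mean normalized count for 40.8%. dre-miR-181a-5p took 4.57%, 4.72% and 4.01% of the counts in stage IIIb replicates 1, 2 and 3, against 7.17%, 6.497% and 6.19% in stage IIIa replicates 1, 2 and 3. Its rank among the 289 miRNAs was 7, 6 and 9 in the stage IIIb samples, against 4, 3 and 4 in the stage IIIa samples. By its mean share over the 6 samples it was in place 6, between dre-miR-26a-5p in place 5 and dre-miR-21 in place 7. The share of dre-miR-26a-5p moved the other way, with 6.51% to 6.88% in stage IIIb against 4.32% to 5.32% in stage IIIa, and that of dre-miR-21 overlapped between the stages, with 3.22% to 4.60% against 4.29% to 5.97%.

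dre-miR-181b-5p has the same seed as dre-miR-181a-5p at a far lower level. It had 3256, 4153 and 5151 normalized counts in the stage IIIb samples, against 11107, 5938 and 9252 in the stage IIIa samples. Every stage IIIb sample was below every stage IIIa sample, and the stage IIIa samples were widely spread. The mean in IIIb was 4186 ± 948, against 8766 ± 2618 in IIIa (SD, n = 3), and the log2 fold change was -1.04 (SE 0.35). Relative to dre-miR-181a-5p, dre-miR-181b-5p stood at 3.29% to 4.06% in stage IIIb and at 4.16% to 8.70% in stage IIIa, again without overlap. The balance of the 2 most abundant strands of this seed thus lay further toward dre-miR-181a-5p in all stage IIIb samples. The gap was narrow, with stage IIIb replicate 3 at 4.06% and stage IIIa replicate 2 at 4.16%.

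dre-miR-181c-5p, a single base from dre-miR-181b-5p, had 560.8, 564.8 and 1222 normalized counts in the stage IIIb samples, against 1283, 1023 and 985.9 in the stage IIIa samples. The stages overlapped, with stage IIIb replicate 3 at the level of the stage IIIa samples. The log2 fold change was -0.58 (SE 0.39), and without stage IIIb replicate 3 it was -0.95. As a share of all counts dre-miR-181c-5p did not overlap between the stages, with 0.0211% to 0.0386% in stage IIIb against 0.0466% to 0.0721% in stage IIIa.

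**Figure D2:**
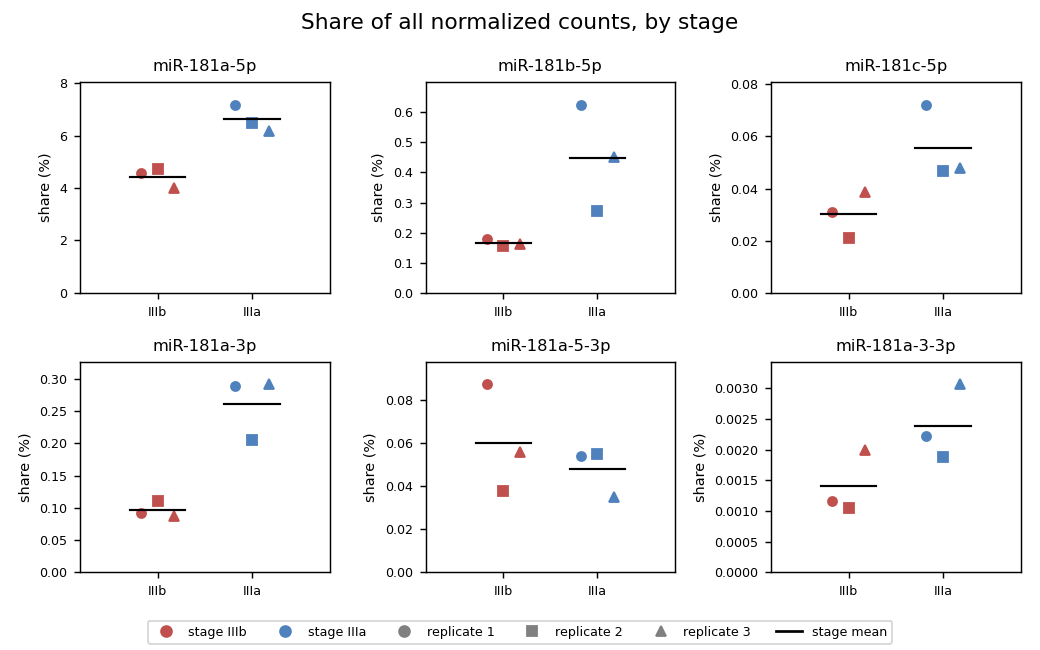
Share of all normalized counts (%) held by each miR-181 strand in stage IIIb and stage IIIa samples, each panel with its own axis from 0, each point a sample and each bar a stage mean. The stages are apart for dre-miR-181a-5p (4.01% to 4.72% against 6.19% to 7.17%), dre-miR-181b-5p, dre-miR-181c-5p and dre-miR-181a-3p, and overlap for dre-miR-181a-5-3p and dre-miR-181a-3-3p.

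Together the 6 rows took 4.96%, 5.05% and 4.36% of the normalized counts in stage IIIb replicates 1, 2 and 3, against 8.21%, 7.08% and 7.02% in stage IIIa replicates 1, 2 and 3. The mean share was 4.79% ± 0.376 in stage IIIb and 7.44% ± 0.675 in stage IIIa (SD, n = 3), a difference of -2.65 percentage points, of which dre-miR-181a-5p held -2.19. In summed normalized counts the family had 90266 to 137956 in stage IIIb and 144207 to 155431 in stage IIIa. In pools of cells, fewer cells that make a miRNA and less of it per cell cannot be told apart.

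The stage differences of the 3p strands had both signs. dre-miR-181a-3p, the main passenger strand, had 1683, 2960 and 2778 normalized counts in the stage IIIb samples, against 5123, 4489 and 5983 in the stage IIIa samples, with no overlap. The mean in IIIb was 2474 ± 691, against 5198 ± 749.8 in IIIa (SD, n = 3), a ratio of 0.476, and the log2 fold change was -1.10 (SE 0.34).

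dre-miR-181a-5-3p, the strand named for the mir-181a-5 precursor, had 1587, 1005 and 1763 normalized counts in the stage IIIb samples, against 959.7, 1211 and 721.7 in the stage IIIa samples. The stages overlapped, with a log2 fold change of 0.58 (SE 0.36), the only positive value among the 6 members. Its mean share of all counts, 0.0602% ± 0.0251 in stage IIIb and 0.0481% ± 0.0112 in stage IIIa (SD, n = 3), overlapped as well.

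dre-miR-181a-3-3p, the strand named for the mir-181a-3 precursor, was rare, with 21.2, 28.2 and 63.0 normalized counts in the stage IIIb samples, against 39.4, 41.1 and 62.9 in the stage IIIa samples. These values stood for an estimated 30, 34 and 180 reads in stage IIIb and 25, 75 and 117 reads in stage IIIa. The paper names a minimum count that a retained miRNA should reach in every replicate of a stage. By these estimates dre-miR-181a-3-3p reached it in neither stage, and the reason was not tested. The 25 reads of stage IIIa replicate 1 have an exact Poisson 95% interval of 16.2 to 36.9, which covers counting error only. Its log2 fold change of -0.46 (SE 0.63) was smaller than its error, and the values of the stages overlapped.

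The shares of the summed 3p counts did not overlap between the stages for dre-miR-181a-3p and dre-miR-181a-5-3p, and overlapped for dre-miR-181a-3-3p. dre-miR-181a-3p held 51.1%, 74.1% and 60.3% of the summed 3p counts in stage IIIb replicates 1, 2 and 3, against 83.7%, 78.2% and 88.4% in stage IIIa replicates 1, 2 and 3. dre-miR-181a-5-3p held 48.2%, 25.2% and 38.3% in the stage IIIb samples, against 15.7%, 21.1% and 10.7% in the stage IIIa samples. dre-miR-181a-3-3p held 0.644% to 1.37% in stage IIIb and 0.644% to 0.929% in stage IIIa. With so little held by dre-miR-181a-3-3p, the shares of dre-miR-181a-3p and dre-miR-181a-5-3p are nearly mirror images and show a single difference. For every 100 counts of dre-miR-181a-3p there were thus 34.0 to 94.3 counts of dre-miR-181a-5-3p in stage IIIb and 12.1 to 27.0 in stage IIIa. This ratio is taken within a sample and does not depend on the scaling between samples. However, dre-miR-181a-3p and dre-miR-181a-5-3p each stood at a fraction of an estimated read in 3 of the 6 samples. Whether they share reads was not tested. Both strands have the same seed, and the summed 3p counts of that seed differed less between the stages than dre-miR-181a-3p alone, with 3963 ± 657 in stage IIIb and 6211 ± 519 in stage IIIa (SD, n = 3), a ratio of 0.638.

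Against the common 5p strand, dre-miR-181a-3p was at 2.02%, 2.34% and 2.19% of dre-miR-181a-5p in stage IIIb replicates 1, 2 and 3, and at 4.01%, 3.15% and 4.70% in stage IIIa replicates 1, 2 and 3. The 3 stage IIIb samples lay close together and below every stage IIIa sample, and the mean log2 ratio differed by -0.84 (SD 0.11 in stage IIIb and 0.29 in stage IIIa, n = 3). dre-miR-181a-5-3p was at 1.91%, 0.796% and 1.39% of dre-miR-181a-5p in the stage IIIb samples, against 0.752%, 0.849% and 0.567% in the stage IIIa samples, which overlapped. With all 3p rows summed over dre-miR-181a-5p, the difference of the mean log2 ratio was -0.39, still without overlap (3.16% to 3.96% in stage IIIb against 4.02% to 5.32% in stage IIIa).

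**Figure D3:**
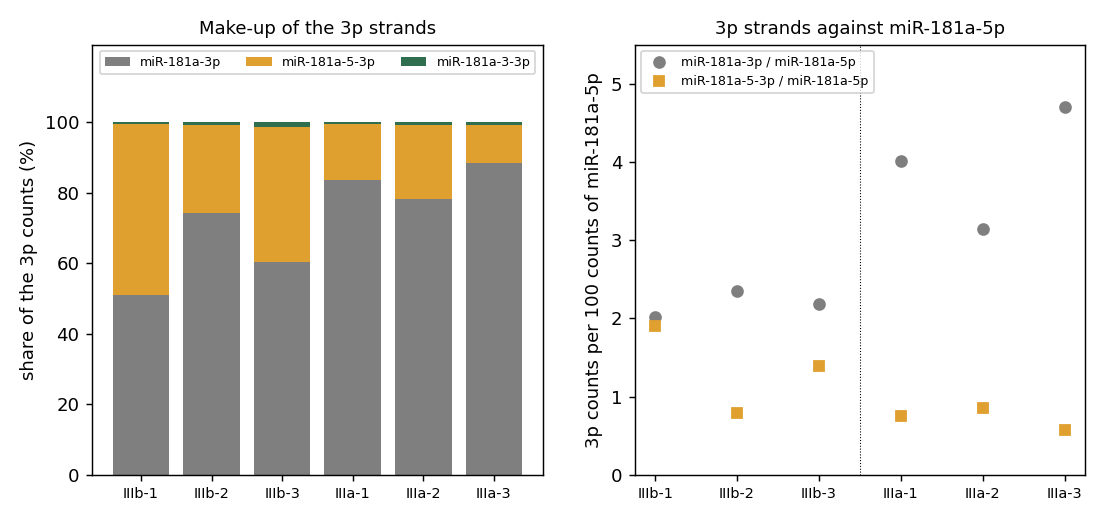
Left, the share (%) of the summed 3p counts held by each of the 3 miR-181 3p strands in each sample; right, counts of dre-miR-181a-3p and dre-miR-181a-5-3p per 100 counts of dre-miR-181a-5p, with stage IIIb samples left of stage IIIa samples. dre-miR-181a-5-3p makes up 25.2% to 48.2% of the 3p counts in stage IIIb and 10.7% to 21.1% in stage IIIa, and dre-miR-181a-3p lies at 2.02% to 2.34% of dre-miR-181a-5p in stage IIIb and at 3.15% to 4.70% in stage IIIa.

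To set this beside other miRNAs, zebrafish rows with the same name apart from the arm were paired, which gave 40 pairs. The log2 ratio of the less to the more abundant arm was computed for each. A name can cover several genes, and dre-miR-181a-5-3p and dre-miR-181a-3-3p stood outside the miR-181a pair. The miR-181a pair (dre-miR-181a-3p over dre-miR-181a-5p) had -0.84, and 5 of the 39 other pairs had a more negative difference between stage IIIb and stage IIIa. With all 3p rows summed over dre-miR-181a-5p the difference was -0.39, between those of miR-27b (-0.42) and let-7j (-0.35). The other pairs had a median of -0.05, with 22 negative and 17 positive, and in 6 of the 39 every stage IIIb ratio was also below every stage IIIa ratio. The neighbors of the miR-181a pair in this order were miR-107a (-0.90) and miR-202 (-0.78). A lower ratio of the minor arm in stage IIIb was therefore not particular to miR-181a. The minor arm stood at 3.14% of the major arm in the miR-181a pair by their means over 6 samples, and 13 of the 39 other pairs had a lower value (median 6.47%).

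**Figure D4:**
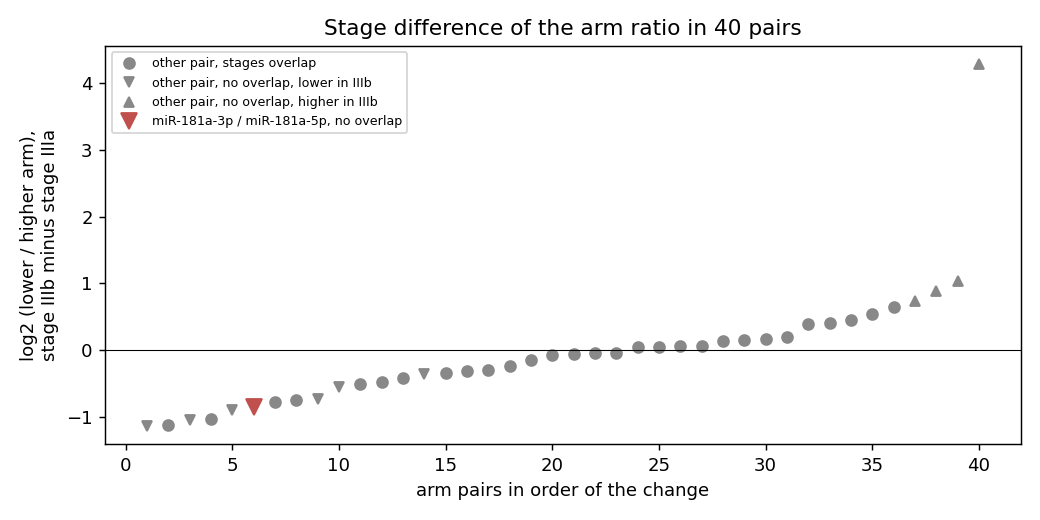
Difference of the mean log2 ratio of the less to the more abundant arm, stage IIIb minus stage IIIa, in order of size. The 40 pairs are zebrafish rows with the same name apart from the arm, and triangles mark pairs whose stages do not overlap. The miR-181a pair (dre-miR-181a-3p over dre-miR-181a-5p, -0.84) is among the negative values, with 5 pairs below it.

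Over all 6 members, 5 had a lower mean normalized count in stage IIIb, where 40.8% of all listed miRNAs did, and dre-miR-181a-5-3p had a higher one. In 3 of the 6 (dre-miR-181a-5p, dre-miR-181b-5p and dre-miR-181a-3p) the stages did not overlap and stage IIIb was lower, which held for 7.96% of all listed miRNAs. In shares of all counts this held for 4 of the 6, with dre-miR-181c-5p added, and for 18.3% of all listed miRNAs. The median log2 fold change was -0.52 over the members and 0.15 over all 289 miRNAs.

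In the limma fit across the 289 miRNAs, 0 of the 6 members had an adjusted p under 0.05 (Benjamini-Hochberg), where 4.5% of all miRNAs did. At an unadjusted p up to 0.05, 2 of the 6 were lower in stage IIIb, dre-miR-181b-5p and dre-miR-181a-3p, where 5.19% of all miRNAs were, and these same 2 of 6 were counted by the equal-variance test on untransformed counts that the study's methods name, where 5.54% of all were. With the samples rescaled to equal totals or by the median ratio, dre-miR-181a-3p had an adjusted p under 0.05, so that 1 of 6 passed, where 4.5% and 5.19% of all miRNAs did. At an unadjusted p up to 0.05, 4 of 6 were then lower, where 14.5% and 10.7% of all were. Equal totals moved the median of all 289 miRNAs to -0.16 and that of the members to -0.83, since rescaling shifts all miRNAs by nearly the same amount. The sign of each of the 6 log2 fold changes was the same under all 3 scalings.

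**Figure D5:**
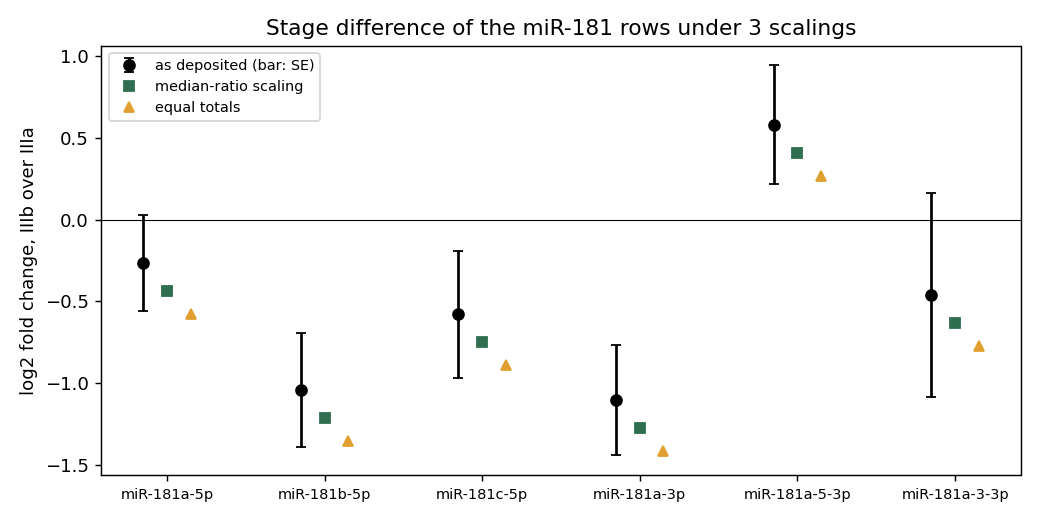
Log2 fold change, stage IIIb over stage IIIa, of the 6 miR-181 strands with the samples as deposited (bars are the standard errors of the limma fit, n = 3 per stage), after median-ratio scaling and after rescaling to equal totals. Only dre-miR-181a-5-3p lies above 0, at 0.58 as deposited and 0.27 with equal totals, and dre-miR-181a-3p is the lowest of the 6, at -1.10 and -1.42.

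The miRNAs whose levels over the 6 samples were most like the 3 most abundant members were sought among the other zebrafish rows, by Pearson's r of log2(normalized count + 1). The samples differ in depth and stage, and all rows share these differences. For dre-miR-181a-5p these were dre-miR-455-3p (r = 0.92) and dre-miR-150 (r = 0.89), for dre-miR-181b-5p dre-mir-457a-p3 (r = 0.89) and dre-miR-222a-3p (r = 0.88), and for dre-miR-181a-3p dre-miR-142a-3p (r = 0.92) and dre-miR-2188-3p (r = 0.90). The list depended on the scaling. After rescaling to equal totals the 2 closest were dre-miR-2188-3p (r = 0.98) and dre-miR-144-5p (r = 0.95) for dre-miR-181a-5p, dre-miR-16b (r = 0.97) and dre-miR-301a (r = 0.96) for dre-miR-181b-5p, and dre-miR-2188-3p (r = 0.97) and dre-miR-17a-5p (r = 0.96) for dre-miR-181a-3p, so that only 1 of the 6 matches was kept. With the samples as deposited, the same matches had r = 0.59 and 0.34 for dre-miR-181a-5p. They had r = 0.85 and 0.46 for dre-miR-181b-5p, and 0.90 and 0.86 for dre-miR-181a-3p. The match that was kept, dre-miR-2188-3p, had 12.0 to 17.4 normalized counts in stage IIIb against 134.9 to 189.1 in stage IIIa. Most of its spread over the 6 samples thus lay between the stages.

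Of the matches under either scaling, miR-150 and miR-142 are miRNAs of leukocytes and miR-2188 and miR-144 are miRNAs of erythroid cells, and miR-181a itself is also known from lymphocytes. The remaining matches (miR-455, miR-457a, miR-222a, miR-16b, miR-301a and miR-17a) were on none of the cell type lists used here. The 6 erythroid rows (miR-451, miR-144 and miR-2188) took 0.0904% to 0.283% of all counts in stage IIIb and 1.08% to 1.47% in stage IIIa. By limma 6 of the 6 were lower in stage IIIb with an adjusted p under 0.05, where 2.08% of all listed miRNAs were. These 6 rows made up that whole share, so no other listed miRNA was called lower at this threshold. The 8 leukocyte rows (miR-142, miR-146, miR-150, miR-155 and miR-223) took 0.850% to 1.149% in stage IIIb and 1.28% to 1.44% in stage IIIa, with a median log2 fold change of -0.39. Among them 0 of 8 had an adjusted p under 0.05 in either direction, where 4.5% of all listed miRNAs did. In summed normalized counts the leukocyte rows overlapped, with 17131 to 36392 in stage IIIb and 22798 to 30466 in stage IIIa. The summed share of the miR-181 rows exceeded that of both lists in every sample, which does not tell how much miR-181 those cells hold. The part of blood cells in the stage difference of the miR-181 rows was not tested. The endothelial miR-126 rows overlapped between the stages, with 1.57% to 1.84% in stage IIIb and 1.40% to 2.19% in stage IIIa.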

How the data were processed

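Small RNA from follicular cells of 3 stage IIIb and 3 stage IIIa pools was sequenced. The authors used the ACGT101-miR program to clean the reads and assign them by BLAST to known hairpins of miRBase; since inexact matches were accepted, reads of near-identical strands could be shared. The submitters' notes name the genome build GRCz11. The deposited values, a signal that is never negative, are counts the authors divided by a library size parameter.

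Groups and replicate numbers come from the sample titles. log2(normalized count + 1) of all 289 rows was fitted without a filter with limma 3.58.1 in R 4.3.3 (empirical Bayes with trend, two-sided, Benjamini-Hochberg), tested on simulated data. Shares use the summed normalized counts. The step, taken as 1 read, came from values under 400, of which 82.8% to 85.9% were whole multiples within 0.01. dre-miR-181a-3-3p was whole in 6 of 6 samples and dre-miR-181a-5p in 0 of 6, where it stood at simple fractions of a read. dre-miR-181b-5p was whole in 1 of 6 samples, and dre-miR-181a-3p, dre-miR-181a-5-3p and dre-miR-181c-5p in 3 of 6 each. The source of these fractions was not tested, so recovered reads served only to describe depth and the low counts of dre-miR-181a-3-3p with their counting error.

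Named beside the 6 members were rows of equal seed, the 2 most correlated rows of the 3 highest members, neighbors by mean share and by arm ratio, and marker lists by miRNA number. Of the lists, gonad, erythroid, leukocyte and endothelial rows are given in the results. The smooth muscle rows took 11.0% to 17.7% of the counts in stage IIIb and 10.1% to 21.2% in stage IIIa, epithelium 0.131% to 0.229% in stage IIIb and 0.114% to 0.152% in stage IIIa, early embryo 0.0120% to 0.0818% in stage IIIb and 0.0146% to 0.0485% in stage IIIa, and skeletal muscle, liver and neuron each at most 0.0293%. Members and lists were chosen with earlier results of these data known. Alternatives were other pseudocounts, scalings, filters and tests, the replicate number as a block, and each sample left out in turn. The real-time PCR was not analysed here.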

Additional observations from a re-analysis of the deposited data

How the results depend on the processing

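Most results kept their direction under the alternatives. The log2 fold changes of the 6 members kept their sign under every alternative that gave a value, the pseudocounts of 0.1 and 10, the filter at a mean of 100, limma without the trend and each sample left out in turn included, and dre-miR-181a-3-3p had no value under the filter. They ranged from -1.42 to -0.85 for dre-miR-181a-3p, from -1.36 to -0.85 for dre-miR-181b-5p, from -0.95 to -0.39 for dre-miR-181c-5p, from -0.91 to -0.14 for dre-miR-181a-3-3p, from 0.27 to 0.83 for dre-miR-181a-5-3p and from -0.58 (equal totals) to -0.06 for dre-miR-181a-5p. The number of members with an adjusted p under 0.05 was 0 as deposited and 1 after either rescaling, and with an unadjusted p up to 0.05 there were 2 and 4. Over all miRNAs, those lower with an unadjusted p up to 0.05 numbered 15 as deposited, 31 by the median ratio and 42 with equal totals, and those with an adjusted p under 0.05 split into 7 higher and 6 lower, 6 and 9, and 5 and 8, against 0 in all with the equal-variance test, which had 16 higher and 16 lower before adjustment. With each sample left out in turn the counts of members stayed at 0 for the adjusted threshold and between 2 and 3 for the unadjusted one, the third being dre-miR-181c-5p without stage IIIb replicate 3.

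With a replicate block, 0 and 2 members passed the adjusted and the unadjusted threshold, as without it. The deviations of equally numbered samples from the means of their stages had correlations of 0.10, 0.28 and -0.03 across miRNAs, so the numbers were not taken to pair the samples. The family's difference in share stayed between -2.86 and -2.26 percentage points, and that of dre-miR-181a-5p between -2.40 and -1.91, with each sample left out. The difference of the log2 arm ratio was -0.84 for dre-miR-181a-3p over dre-miR-181a-5p, -0.39 with all 3p rows, -0.35 for all 3p over all 5p rows, and between -0.99 and -0.70 with each sample left out. With minor arms at a mean of at least 100 counts, 4 of 28 other pairs had a more negative difference than dre-miR-181a-3p over dre-miR-181a-5p. Rescaling to equal totals kept 1 of the 6 closest matches. dre-miR-181a-3-3p rested on the fewest estimated reads, 25 to 180 per sample.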
